A study of Mus musculus with 15 samples.

Results

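This account follows 9 genes of de novo lipogenesis, the making of fatty acids from acetyl-CoA: Fasn, Acly, Acaca, Scd1, Elovl6, Thrsp, Pnpla3, Srebf1 and Mlxipl. They were picked by symbol from 14272 named genes because their levels in the weekly prednisone libraries were already known to stand out, so every contrast of the members with those libraries is given as a description without a test. All 9 were among the 14059 genes tested, which needed at least 1 CPM (reads scaled to a fixed library total) in at least 5 libraries. Levels were measured by total RNA sequencing of quadriceps from males of the DBA/2J-mdx strain, which lacks dystrophin and models Duchenne muscular dystrophy. The labels form 3 groups of 5 libraries. All mice were dystrophic and all were injected intraperitoneally 7 times per week, so no healthy or uninjected group enters. Vehicle mice received DMSO at each injection. Weekly mice received 1 prednisone injection of 1 mg/kg and 6 vehicle injections per week, and daily mice received 7 prednisone injections of 1 mg/kg. Age is 6 months in the protocol and about 7 months in the sample characteristics. The labels do not state how long treatment lasted, the time between last injection and collection, or feeding state. Nothing in the labels ties each library to its own animal, so every p-value below reflects spread between libraries that could be technical.

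In lipogenesis, ATP citrate lyase (Acly) makes cytosolic acetyl-CoA from citrate, acetyl-CoA carboxylase (Acaca) makes malonyl-CoA, and fatty acid synthase (Fasn) builds palmitate from both. Elovl6 lengthens palmitate and Scd1 puts a double bond into the products. Thrsp is a small protein linked to lipogenic tissues, Pnpla3 is a lipid droplet protein, and Srebf1 (SREBP1) and Mlxipl (ChREBP) are transcription factors that drive the enzyme genes in response to insulin and to glucose. Liver and adipose tissue are the classic sites of the pathway, and adult muscle fibres carry it out at a low rate.

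Promoter sequence is shown for 4 members: Fasn and Thrsp, whose levels moved closely together, Elovl6, which had the highest weekly to vehicle ratio, and Pnpla3, the 1 member called in daily against vehicle. Each run is the 250 bases before the start site in RefSeq on GRCm38.p6, read 5′ to 3′ along the gene, with CCAAT boxes (CCAAT or its reverse complement ATTGG) in capitals. Fasn lies at chr11:120824548-120824797 on the minus strand, Thrsp at chr7:97417551-97417800 on the minus strand, Elovl6 at chr3:129532136-129532385 on the plus strand and Pnpla3 at chr15:84167566-84167815 on the plus strand.
Fasn: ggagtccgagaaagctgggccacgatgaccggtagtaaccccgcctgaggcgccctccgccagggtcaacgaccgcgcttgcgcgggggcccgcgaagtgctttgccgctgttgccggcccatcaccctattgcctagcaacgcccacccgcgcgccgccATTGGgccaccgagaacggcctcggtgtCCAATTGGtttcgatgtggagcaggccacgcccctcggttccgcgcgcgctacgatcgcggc
Thrsp: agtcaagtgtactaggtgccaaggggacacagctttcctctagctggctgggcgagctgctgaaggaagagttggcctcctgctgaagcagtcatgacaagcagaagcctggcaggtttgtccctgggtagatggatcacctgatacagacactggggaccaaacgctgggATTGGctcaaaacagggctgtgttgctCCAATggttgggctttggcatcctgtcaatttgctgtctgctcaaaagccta
Elovl6: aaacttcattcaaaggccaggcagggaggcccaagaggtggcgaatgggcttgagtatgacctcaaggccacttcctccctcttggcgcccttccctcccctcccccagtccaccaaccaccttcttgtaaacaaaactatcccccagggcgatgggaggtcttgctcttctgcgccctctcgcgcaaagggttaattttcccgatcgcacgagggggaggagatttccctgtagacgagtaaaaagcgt
Pnpla3: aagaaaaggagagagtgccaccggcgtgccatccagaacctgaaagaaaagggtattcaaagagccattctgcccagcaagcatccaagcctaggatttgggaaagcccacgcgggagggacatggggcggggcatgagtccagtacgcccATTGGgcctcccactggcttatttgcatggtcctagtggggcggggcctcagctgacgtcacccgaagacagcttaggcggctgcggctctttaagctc
The Fasn run holds CCAAT boxes starting at positions -90, -62 and -59 from the start site, of which the last 2 overlap. Thrsp holds them at -79 and -52, and Pnpla3 at -99. The Elovl6 run holds none. Motifs were searched on both strands in windows of 300 bases, which add 50 bases after the start. RefSeq gave 11 such windows for 8 members, and Scd1 was not matched. CCAAT was found in 7 of the 11 windows (6 members), against 37.4% of 32851 mouse promoter windows, and the GC box GGGCGG in 5 (4 members), against 35.7%. The E-box CACGTG and the sterol regulatory element TCACNCCAC were each found in 1 window, both of Mlxipl, against 7.15% and 1.24% of all windows. The paired AGGTCA motif with a spacer of 4 bases, which LXR receptors bind, and the glucocorticoid receptor motif (GNACA and TGTNC around 3 free bases) were found in 0 of the 11 windows, against 0.0152% and 0.475%. Only these letters in these windows were searched.

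The members do not sit together in the genome, although 4 of the 9 are on chromosome 11 in the GENCODE M21 annotation of GRCm38. These are Srebf1 (60199089 to 60222581, minus), Acaca (84129672 to 84401651, plus), Acly (100476353 to 100528000, minus) and Fasn (120805846 to 120824547, minus). Scd1 is on chromosome 19 (44394455 to 44407879, minus), Elovl6 on chromosome 3 (129532355 to 129638495, plus) and Thrsp on chromosome 7 (97412938 to 97417730, minus). Pnpla3 is on chromosome 15 (84167837 to 84187236, plus) and Mlxipl on chromosome 5 (135089890 to 135138382, plus). All 9 are protein-coding. Reads were counted over whole genes, so the start sites of Srebf1, Mlxipl and Acaca cannot be separated. Pnpla3 shares 6.78% of its exon bases with other genes, Mlxipl 4.24% and Srebf1 3.11%, and Scd1 is close in sequence to Scd2. The labels do not say if counting was stranded, so these values are less certain.

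Library depth ran from 2780768 reads (weekly 4) to 11052552 reads (weekly 2), so 3 reads equal 0.271 to 1.08 CPM, a floor that covers counting error only. The fewest reads behind any member value were 14, for Elovl6 in daily 3. A pair of libraries stood apart from the rest of their groups: weekly 4 had 0.57% of its reads in mt-Rnr2 against 6.23% to 9.44% in the other weekly libraries, and daily 3 had 20.6% in Gm26924, a predicted gene. Daily 3 also had 7.80% in Lars2. In Gm26924 and Lars2, daily 5 had 3.03% and 1.62% and daily 1 had 1.41% and 0.664%. The remaining libraries had at most 0.554% and 0.256%. Variation between libraries beyond counting error, as a coefficient of variation over genes, was 3.56% in vehicle, 29.4% in weekly (17.0% without weekly 4) and 9.40% in daily (8.27% without daily 3). Over all genes, limma called 983 higher and 150 lower in weekly than vehicle, and 248 higher and 299 lower in daily than vehicle. TMM scaling, which sets libraries level on the bulk of their genes, gave 805 and 588, and 789 and 488. It moved the median weekly minus vehicle log2 difference over all genes from 0.17 to 0.01, so TMM values stand beside those of the members.

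The 7 enzymes and lipid proteins were all far higher in the weekly libraries than in vehicle, with ratios of group means from 8.30 for Acaca to 36.5 for Elovl6. Every weekly library lay above every vehicle library for each of the 7 and for Srebf1, that is for 8 of 9 members, and this was also so after TMM scaling. Among all genes tested that separation was found for 11.8% (5.37% after TMM scaling); since the weekly values chose the members, the count describes them and shows nothing further. The weekly libraries differed widely from each other, and daily means were 0.828 (Fasn) to 1.36 (Elovl6) times those of vehicle for every member except Pnpla3, at 3.62 times.

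Acly supplies the acetyl-CoA. Its level in vehicle 1 to 5 was 30.9, 31.4, 26.7, 25.6 and 29.8 CPM. In weekly 1 to 5 it was 394, 101, 650.3, 109 and 901 CPM, and in daily 1 to 5 it was 43.9, 31.7, 18.4, 35.8 and 38.7 CPM. Weekly 5 and 3 were high and weekly 2 and 4 low, yet the lowest weekly value was above the highest of any vehicle or daily library. Group means were 28.9 ± 2.61, 431 ± 347 and 33.7 ± 9.62 CPM (SD, n = 5 each), a weekly to vehicle ratio of 14.9.

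Acaca carries out the committed step. Vehicle 1 to 5 gave 65.5, 67.0, 72.5, 63.0 and 74.5 CPM. Weekly 1 to 5 gave 489, 200.3, 752, 138 and 1264 CPM, and daily 1 to 5 gave 81.2, 63.8, 34.5, 63.2 and 75.5 CPM. Weekly 4 was the lowest weekly library at 2.02 times the vehicle mean, and weekly 5 the highest at 18.5 times. Daily and vehicle libraries overlapped. The means were 68.5 ± 4.82, 569 ± 459 and 63.7 ± 18.0 CPM (SD, n = 5 each).

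Fasn was the second most abundant of the 9 per kilobase of exon. Its values were 208, 238, 228, 211 and 241 CPM in vehicle 1 to 5. They were 2850.1, 888, 3604, 979 and 6169 CPM in weekly 1 to 5, and 301, 153, 92.5, 180.2 and 205 CPM in daily 1 to 5. In the daily group 1 library was above all vehicle libraries and 4 were below all of them. Weekly libraries exceeded the vehicle mean between 3.94 times (weekly 2) and 27.4 times (weekly 5), and the group means were 225 ± 15.1, 2898 ± 2175 and 186 ± 76.8 CPM (SD, n = 5 each).

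Elovl6, at the low end in vehicle, had the highest ratio. It stood at 4.87, 4.92, 4.35, 3.43 and 4.75 CPM in vehicle 1 to 5. In weekly 1 to 5 it stood at 137, 36.8, 246, 18.0 and 377 CPM, and in daily 1 to 5 at 9.42, 4.62, 2.17, 5.65 and 8.59 CPM. Weekly 5 was 84.6 times the vehicle mean and weekly 4 only 4.03 times, on 50 reads. The means were 4.46 ± 0.619, 163 ± 150.4 and 6.09 ± 2.96 CPM (SD, n = 5 each).

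Scd1, the desaturase, was the most abundant member per kilobase in all 3 groups. Its values were 309, 328, 332, 298 and 342 CPM in vehicle 1 to 5. Weekly 1 to 5 held 2283, 1315, 4282, 531 and 7887 CPM, and daily 1 to 5 held 442, 214, 149, 259 and 278 CPM. Weekly 4 reached 1.65 times the vehicle mean, the smallest such ratio of any of the 7 in any weekly library, and weekly 5 reached 24.5 times. The means were 322 ± 17.8, 3259 ± 2943 and 268 ± 109 CPM (SD, n = 5 each), a weekly to vehicle ratio of 10.1.

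Thrsp followed the enzymes. Vehicle 1 to 5 had 9.13, 11.2, 8.70, 7.30 and 10.9 CPM. Weekly 1 to 5 had 137, 41.5, 209, 28.4 and 346 CPM, and daily 1 to 5 had 16.1, 6.11, 6.35, 7.74 and 8.73 CPM. Daily 1 stood above all vehicle and all other daily libraries. The weekly to vehicle ratio of means was 16.1, from 9.44 ± 1.62 to 152 ± 131 CPM, with 9.0003 ± 4.09 CPM in daily (SD, n = 5 each).

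Pnpla3 was the member that was higher under both regimens. Its vehicle values were 5.60, 5.15, 4.35, 4.42 and 6.44 CPM. Weekly 1 to 5 had 75.2, 32.7, 99.6, 24.8 and 159 CPM, and daily 1 to 5 had 28.1, 17.7, 13.5, 14.02 and 20.6 CPM. Every daily library was above every vehicle library, and 4 of 5 were below every weekly library, daily 1 lying above weekly 4. After TMM scaling 2 of 5 were below every weekly library. The means were 5.19 ± 0.870, 78.2 ± 54.5 and 18.8 ± 5.97 CPM (SD, n = 5 each).

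The transcription factor genes differed far less between groups than the genes they are known to drive. Srebf1 was at 69.4, 67.5, 69.8, 68.4 and 70.9 CPM in vehicle 1 to 5. It was at 100.4, 105, 134, 143 and 129 CPM in weekly 1 to 5 and at 74.6, 74.2, 47.9, 71.4 and 59.4 CPM in daily 1 to 5. Weekly 4, low for the 7, was among the highest weekly libraries for Srebf1, highest by CPM and just below weekly 3 after TMM scaling (118.9 against 119.2). The means were 69.2 ± 1.29, 122 ± 19.0 and 65.5 ± 11.6 CPM (SD, n = 5 each), a weekly to vehicle ratio of 1.77.

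Mlxipl was the member whose weekly and vehicle libraries overlapped. Vehicle 1 to 5 gave 52.1, 53.5, 51.2, 51.7 and 50.2 CPM. Weekly 1 to 5 gave 111, 58.2, 92.0, 41.7 and 106 CPM, and daily 1 to 5 gave 65.1, 56.6, 36.9, 55.9 and 54.6 CPM. In weekly, 4 libraries were above all vehicle libraries and weekly 4 was below them. The means were 51.7 ± 1.22, 81.7 ± 30.4 and 53.8 ± 10.3 CPM (SD, n = 5 each), a weekly to vehicle ratio of 1.58.

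**Figure D1:**
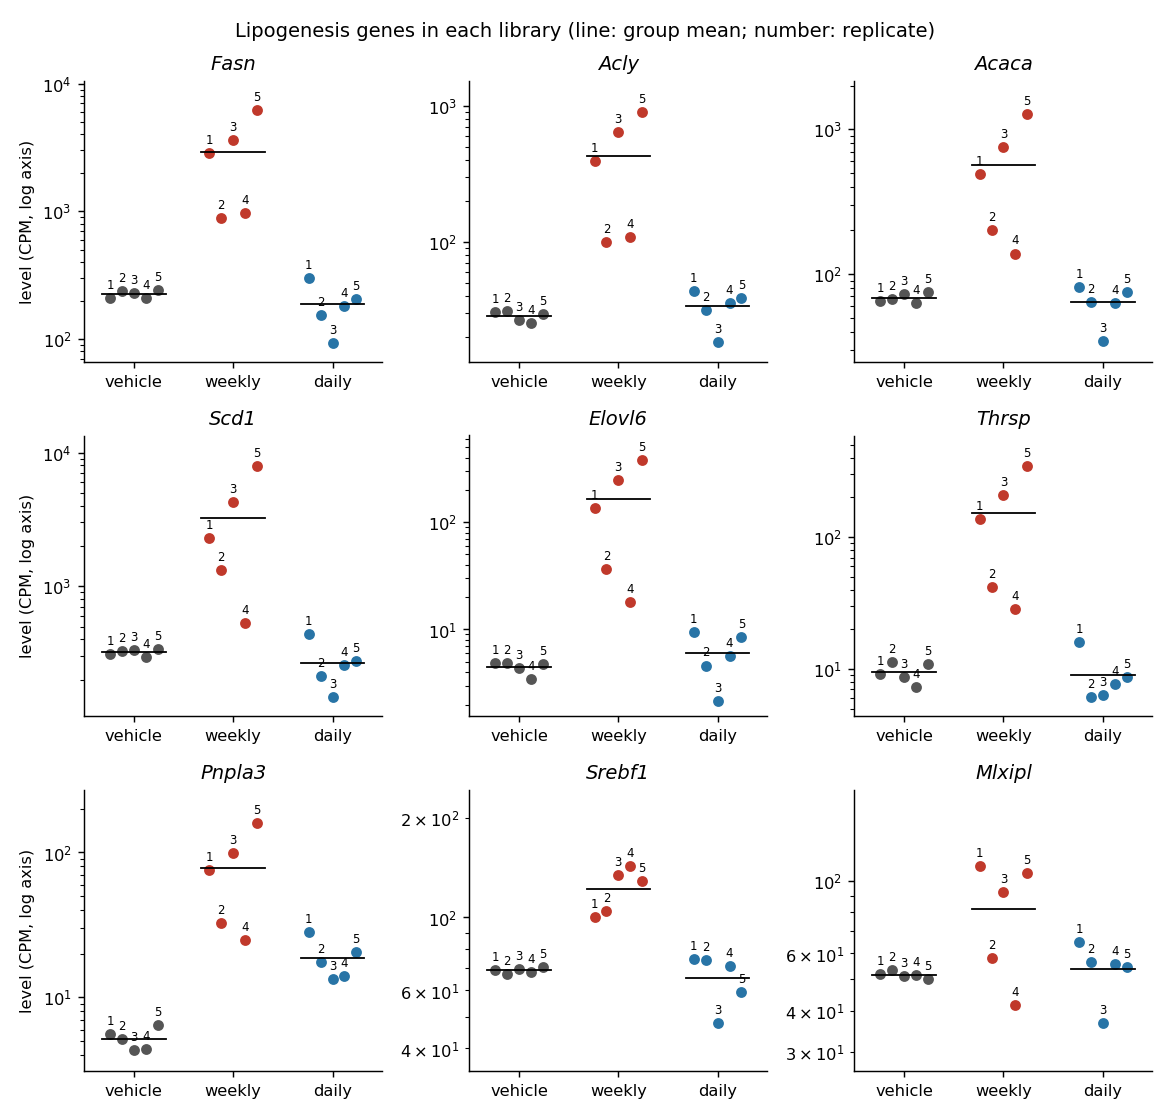
Level of each of the 9 genes in every library, in CPM on a log axis, by group (vehicle grey, weekly red, daily blue; numbers are replicates and lines are group means). For 8 genes all 5 weekly points lie above all vehicle points, the exception being Mlxipl, and for Pnpla3 all 5 daily points also do.

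On the log2(CPM + 0.5) scale, which understates differences of low genes, the weekly minus vehicle difference of the 7 ran from 2.61 (SE 0.40, Acaca) to 4.31 (SE 0.56, Elovl6). It was 0.80 (SE 0.14) for Srebf1 and 0.56 (SE 0.21) for Mlxipl. After TMM scaling the 7 ran from 2.43 to 4.13, with 0.63 for Srebf1 and 0.38 for Mlxipl, so no member changed direction. The order of the weekly libraries was largely shared: from high to low it was 5, 3, 1, 2, 4 in 5 members and 5, 3, 1, 4, 2 in Fasn and Acly. Srebf1 and Mlxipl each had another order. The highest weekly library exceeded the lowest 20.99 times for Elovl6 and 6.40 times for Pnpla3, but 1.43 times for Srebf1. The coefficient of variation of the 7 was 69.7% to 92.3% in weekly, 28.3% to 48.6% in daily and 5.54% to 17.1% in vehicle. In daily, library 1 was the highest for 9 of 9 members and library 3 the lowest for 8 of 9. After TMM scaling daily 1 was still the highest for 9 of 9, but daily 3 the lowest for 4 of 9, and weekly 4 was the lowest weekly library for 8 of 9.

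**Figure D2:**
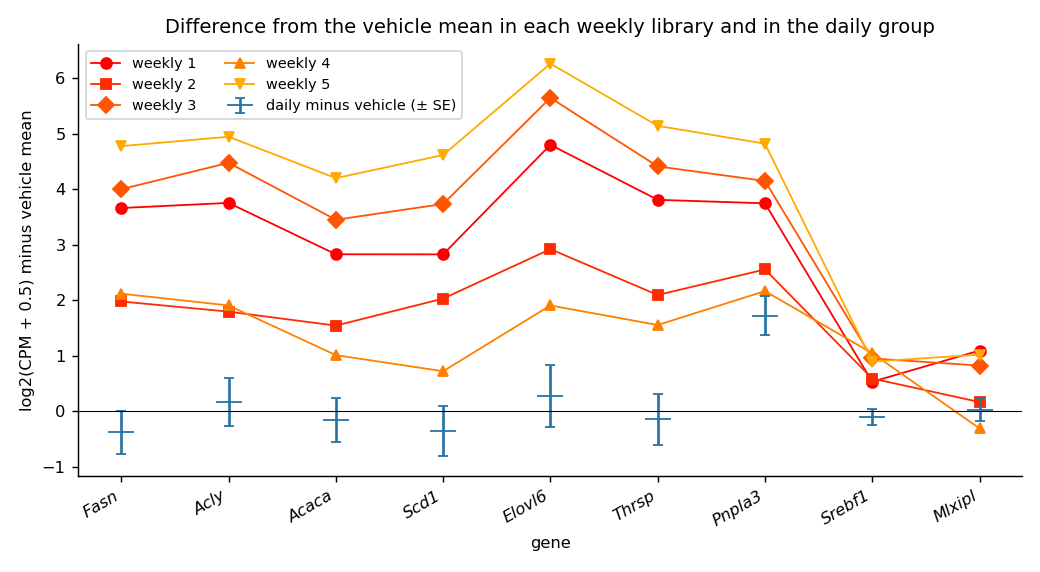
Difference from the vehicle mean in log2(CPM + 0.5) for each of the 9 genes, with a line for each weekly library and a blue bar for daily minus vehicle with its SE. Over the first 7 genes weekly 5, 3 and 1 lie above weekly 2 and 4, and all 5 lines drop to about 1 or lower at Srebf1 and Mlxipl.

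Together the 7 took up 613 to 709.5 CPM in vehicle libraries. In weekly 1 to 5 they took up 6365, 2615, 9842, 1828 and 17103 CPM, and in daily 1 to 5 922, 491, 316, 566 and 636 CPM. In weekly 5 this was 1.71% of all reads. Fasn and Scd1 made up 81.7% to 83.1% of this sum in vehicle, 80.1% to 84.2% in weekly and 74.8% to 80.6% in daily, so the vehicle range of this share lay within the weekly one. Per kilobase of exon, the vehicle order of mean levels was Scd1 (65.8 CPM per kb), Fasn (20.6), Srebf1 (12.3), Mlxipl (9.34), Acly (5.47), Thrsp (4.31), Acaca (4.01), Pnpla3 (3.36) and Elovl6 (0.694). The library ranges of Thrsp overlapped those of Acly, Acaca and Pnpla3. In weekly libraries Srebf1 (21.7 CPM per kb) and Mlxipl (14.8 CPM per kb) had the lowest means of the 9, below Elovl6 at 25.3 CPM per kb. Weekly ranges overlapped between most neighbours in that order.

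The members were chosen for their weekly and not their daily levels, so daily against vehicle was tested. The vehicle libraries are shared with the contrast that chose the members. Earlier results of these data were known at that choice, so the test may not be fully independent of it. Pnpla3 was the single member called, 1 of 9, against 1.76% of all genes called higher in daily and 2.13% called lower. It rose by 1.72 on the log2 scale (SE 0.35, limma with Benjamini-Hochberg adjusted p = 0.00465), a ratio of means of 3.62, and was higher than every vehicle library in 5 of 5 daily libraries. The background for such complete separation was 2.45% of genes (10.1% after TMM scaling). TMM scaling gave Pnpla3 1.81 (limma adjusted p = 0.00420), and over 25 alternative settings the difference ran from 1.57 to 1.94 with the gene called each time. It was not called when the 5 vehicle libraries were averaged into 1 sample, an alternative chosen after seeing the data (1.71, limma adjusted p = 1.0), and in that fit no gene of the lists described next was called either.

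None of the other 8 members passed the threshold in daily against vehicle. Fasn had a log2 difference of -0.37 (SE 0.39, limma adjusted p = 0.684), Scd1 of -0.35 (SE 0.45, limma adjusted p = 0.747) and Acaca of -0.16 (SE 0.40). Thrsp had -0.14 (SE 0.46), Srebf1 -0.10 (SE 0.14), Mlxipl 0.03 (SE 0.21), Acly 0.17 (SE 0.43) and Elovl6 0.28 (SE 0.56). These SEs take a single spread per gene from all 3 groups, and for the 7 the weekly libraries varied most. They therefore do not describe the daily and vehicle libraries alone. With SEs of this size, differences well under those of the weekly libraries would not have been detected for the enzymes in this fit. Daily minus weekly differences, a description, ran from -4.03 for Elovl6 to -0.53 for Mlxipl. All 5 daily libraries lay below all 5 weekly libraries for 7 of 9 members, against 6.98% of all genes (2.53% after TMM scaling). The exceptions were Pnpla3 and Mlxipl.

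The 19 other fatty acid synthesis genes tested, listed as partners of the members, were divided. This list and those that follow were also drawn up with earlier results known, so their counts are not independent evidence of a direction. Counts given without 1 library go with shifts over all genes. Calls against vehicle then ran from 645 to 2251 in weekly (1133 with all libraries) and from 347 to 1478 in daily (547 with all libraries). In weekly against vehicle 8 rose and 0 fell, against 6.99% of all genes called higher and 1.07% called lower, and the list's median log2 difference was 0.47 beside 0.17 for all genes. After TMM scaling 7 rose and 2 fell, against 5.73% and 4.18% of all genes. Slc25a1, the mitochondrial citrate carrier that feeds Acly, was at 10.4 ± 0.675 CPM in vehicle and at 63.0, 22.6, 113, 21.9 and 156 CPM in weekly 1 to 5. Weekly 5, 3 and 1 were again the highest, and all 5 were above vehicle. It rose by 2.38 (SE 0.39, limma adjusted p = 0.000569), the largest change on the list, and was at 7.94 ± 2.48 CPM in daily.

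Scd2, the paralog of Scd1, rose from 52.7 ± 3.32 to 148 ± 49.8 CPM in weekly (1.41, SE 0.19, limma adjusted p = 5.64e-05). Mid1ip1, a partner of Thrsp that promotes Acaca polymerisation, rose by 1.27 (limma adjusted p = 0.000402). Hsd17b12, of the elongation cycle, rose by 1.52 (limma adjusted p = 0.00303) and Acss2, which makes acetyl-CoA from acetate, by 1.16 (limma adjusted p = 0.00268). Acacb, the carboxylase isoform tied to fat oxidation in muscle, had 0.35 (limma adjusted p = 0.197), and malic enzyme Me1, an NADPH source, had 0.52 (limma adjusted p = 0.137).

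In daily against vehicle 1 of the 19 partners rose and 1 fell, against 1.76% of all genes called higher and 2.13% called lower. The list's median was -0.28 beside -0.08 for all genes. Scd2 rose to 87.1 ± 18.3 CPM (0.70, SE 0.19, limma adjusted p = 0.0359), with all 5 daily libraries above vehicle. That call ended when any 1 vehicle library or any of daily 1, 2, 4 or 5 was left out (limma adjusted p up to 0.119). Acot2, a mitochondrial acyl-CoA thioesterase, fell by 1.00 (limma adjusted p = 0.00608), and 4 partners fell without weekly 4. In daily against weekly 12 of 19 were lower and 0 higher, against 8.24% and 0.484% of all genes. After TMM scaling 7 were lower and 0 higher, against 2.64% and 2.08%.

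Triglyceride assembly genes rose in part in weekly libraries: 5 of 17 tested rose and 0 fell, against 6.99% and 1.07% of all genes, and the median was 0.45 beside 0.17. Gpd1, which makes glycerol 3-phosphate, rose by 1.25 (limma adjusted p = 0.000327), and Plin2, a lipid droplet coat protein, by 1.09 (limma adjusted p = 0.00290). Agpat2 rose by 1.91 (limma adjusted p = 0.0103, not called in a fit of weekly and vehicle alone), Dgat2, which adds the last acyl chain, by 1.63 (limma adjusted p = 0.0106), and Gpat4 by 0.63 (limma adjusted p = 0.0121). In daily libraries 1 rose and 1 fell, against 1.76% and 2.13% of all genes. Gpam, a mitochondrial glycerol phosphate acyltransferase, fell by 0.66 (limma adjusted p = 0.00912). Lpin3 rose by 0.79 (limma adjusted p = 0.0484), a call that ended without any 1 vehicle library, weekly 3, weekly 5 or daily 1, 2, 4 or 5 (adjusted p up to 0.162). The count of triglyceride genes that rose in weekly was 8 without daily 3, and the count that fell in daily was 3 without weekly 4. Calls over all genes were more numerous in those fits too, 2251 against 1133 in weekly and 1478 against 547 in daily.

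Sterol genes, which SREBP factors also control, rose in weekly libraries in 10 of 23 tested, with 0 lower, against 6.99% and 1.07% of all genes, and a median of 0.66. Insig1, an SREBP brake and target, rose by 1.44 (limma adjusted p = 0.00228) and Acat2 by 1.48 (limma adjusted p = 0.00757). Pmvk rose by 1.19 (limma adjusted p = 0.00358) and Fdps by 0.84 (limma adjusted p = 0.00312). In daily libraries limma called 0 of 23, against 1.76% of all genes called higher and 2.13% called lower. An unadjusted limma p under 0.05 was found for 2 of the 23, while edgeR and DESeq2 each called 1. Limma called 1 without weekly 1, without weekly 4 or without daily 3. Fdft1, squalene synthase, had -0.42 (limma adjusted p = 0.238).

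Of 27 genes that control SREBP and ChREBP activity, 2 rose in weekly libraries and 0 fell, a share near the 6.99% of all genes called higher, and the median was 0.17, as for all genes. With TMM scaling 2 rose and 2 fell, against 5.73% and 4.18% of all genes. On this list edgeR called 3 higher and 3 lower, and DESeq2 3 and 4. Sik1, a kinase that restrains lipogenic transcription, rose by 0.80 (limma adjusted p = 0.0278), and the LXR target Abcg1 by 0.92 (limma adjusted p = 0.0394). The count was 4 without weekly 1. Both calls ended without any 1 vehicle library or weekly 3, and Abcg1 also without weekly 5, daily 2 or daily 4 (adjusted p up to 0.0675 and 0.0963). Srebf2 had 0.56 (limma adjusted p = 0.1001) and Pparg 1.07 (limma adjusted p = 0.0611). In daily libraries Sik1 rose by 0.83 (limma adjusted p = 0.0327), a call that ended without any 1 vehicle library or without daily 1, 2, 4 or 5 (adjusted p up to 0.0935). Ppargc1b, a coactivator of SREBP1, fell by 0.86 (limma adjusted p = 0.00780), and 2 genes of this list fell without weekly 4. With all libraries 1 of the 27 rose in daily and 1 fell, against 1.76% and 2.13% of all genes.

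Among 12 genes of glucose supply and ChREBP response, 3 rose in weekly libraries and 0 fell, against 6.99% and 1.07% of all genes. Their median was 0.39 beside 0.17 for all genes. After TMM scaling 1 rose and 2 fell, against 5.73% and 4.18%. Without that scaling, the count that rose was 1 without weekly 3 or 5 or without vehicle 1, 2, 3 or 5. Slc2a1, a glucose transporter, rose by 1.01 (limma adjusted p = 0.00301). Hexokinase Hk2 rose by 0.57 (limma adjusted p = 0.0326) and the fructose pathway kinase Tkfc by 0.89 (limma adjusted p = 0.0419). Both calls ended with TMM scaling (adjusted p 0.0696 and 0.0608) and without weekly 3, weekly 5 or most single vehicle libraries, Hk2 also without weekly 1 and Tkfc without weekly 4 or daily 1, 4 or 5 (adjusted p up to 0.0779 and 0.117). In daily libraries 0 of these genes fell, against 2.13% of all genes called lower, and 2 fell without weekly 4. With limma 3 of 12 had an unadjusted p under 0.05 in either direction, and edgeR and DESeq2 each called 2 lower. Txnip, a glucose-responsive gene, had -0.55 (limma adjusted p = 0.0691).

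**Figure D3:**
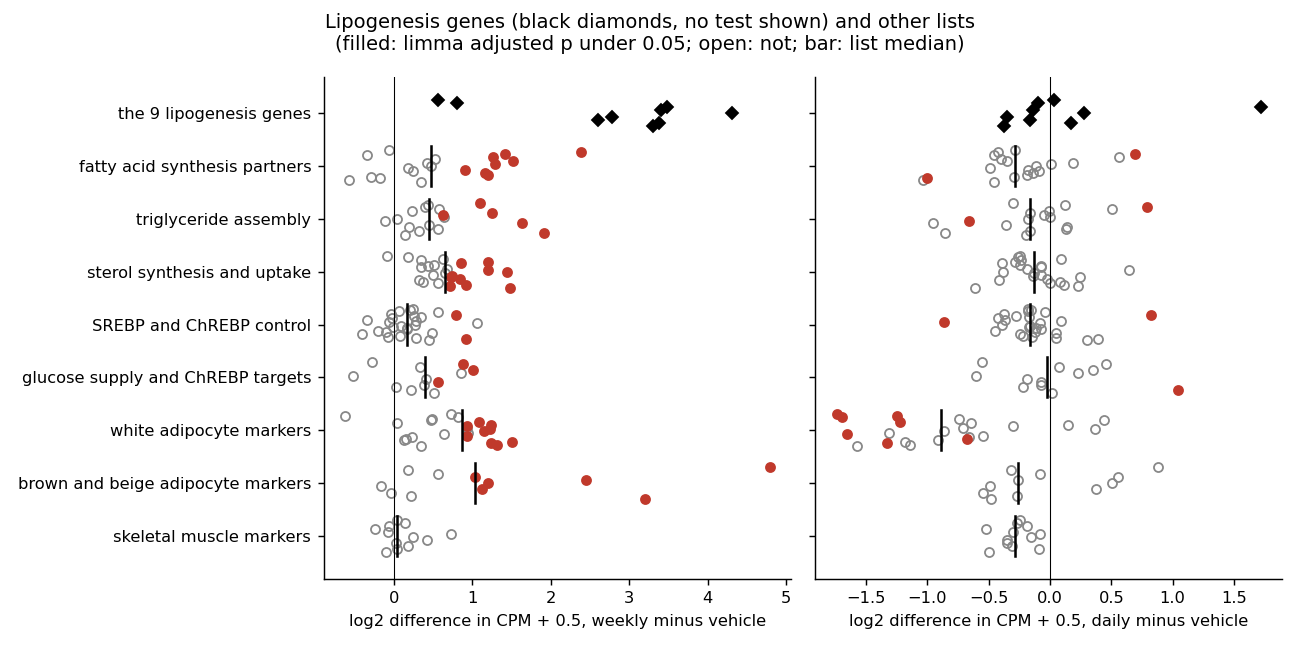
Log2 difference in CPM + 0.5 of every tested gene on each list for weekly minus vehicle (left) and daily minus vehicle (right), with filled points for limma adjusted p under 0.05, a bar at each list's median and black diamonds for the 9 lipogenesis genes. Diamonds of the 7 lie at 2.61 or higher on the left, beyond every point of the 5 pathway lists, and on the right Pnpla3 stands alone at 1.72.

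Muscle homogenate can hold fat cells, which carry the lipogenic pathway, and in bulk RNA fewer cells of a type cannot be told apart from less RNA per cell. All 22 white adipocyte markers were detected in every library, with none at 0. Their summed level was 3196 to 3454 CPM in vehicle, 4352, 3344, 5390.2, 3402 and 8075 CPM in weekly 1 to 5, and 1624 to 2794 CPM in daily. This sum includes lipoprotein lipase (Lpl), which muscle also makes, and is weighted towards its most abundant markers, so it may not follow fat cell content. Adipoq, described next, was a small part of it and was above its own vehicle mean in weekly 2 and 4. In weekly 2 and 4 the marker sum was 1.01 and 1.02 times the vehicle mean while the summed 7 were 3.94 and 2.76 times theirs. In weekly 5 the ratios were 2.43 and 25.8. The sum of the 7 divided by the marker sum was 0.199 ± 0.00797 in vehicle, 1.35 ± 0.673 in weekly and 0.248 ± 0.0641 in daily (SD, n = 5 each), and every weekly library (0.537 or more) exceeded every other library (0.330 or less). How much of the members' difference goes with fat cell content was not tested.

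By marker, 9 of 22 rose in weekly libraries and 0 fell, against 6.99% and 1.07% of all genes. After TMM scaling 5 rose and 0 fell, against 5.73% and 4.18%. Without that scaling the median was 0.87 beside 0.17 for all genes. Adipoq, the adipocyte hormone adiponectin, was at 29.9 ± 0.579 CPM in vehicle and at 49.0, 48.6, 105, 43.5 and 166 CPM in weekly 1 to 5. It rose by 1.23 (limma adjusted p = 0.0112) and Lep, leptin, by 1.22 (limma adjusted p = 0.0143). Lrg1 rose by 1.24 (limma adjusted p = 0.00579), lipoprotein lipase Lpl, which muscle also makes, by 0.93 (limma adjusted p = 0.00993) and Cebpa by 0.93 (limma adjusted p = 0.0157, but 0.0535 without weekly 5). Droplet protein Plin1 rose by 1.08 (limma adjusted p = 0.0346) and Fabp4 by 1.15 (limma adjusted p = 0.0282), and both calls ended with TMM scaling (adjusted p 0.0801 and 0.0692) and without any 1 vehicle library, weekly 3 or weekly 5 (adjusted p up to 0.0969 and 0.0759). Cidec had 0.94 (limma adjusted p = 0.152) and Cfd 0.64 (limma adjusted p = 0.129); without weekly 4 both were called. The number of markers called higher was 17 without weekly 4 and 18 without weekly 4 and daily 3, but 4 without weekly 5, and 5 without weekly 3 or any 1 vehicle library. Calls over all genes, 1133 in the main fit, moved as well. They ran from 645 to 2251 without 1 library and were more numerous still without weekly 4 and daily 3.

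In daily libraries 7 of 22 white adipocyte markers fell and 0 rose, against 2.13% and 1.76% of all genes. After TMM scaling 7 fell and 1 rose, against 3.47% and 5.61%. Without that scaling the median was -0.89 beside -0.08 for all genes. Cfd, adipsin, fell by 1.65 (limma adjusted p = 0.000550), Retn by 1.69 (limma adjusted p = 0.00472), Tusc5 by 1.74 (limma adjusted p = 0.0121), Adipoq by 1.33 (limma adjusted p = 0.00976) and Plin1 by 1.22 (limma adjusted p = 0.0248). The Plin1 call ended without any 1 vehicle library or daily 2, 3 or 4 (adjusted p up to 0.0826). Cidec had -1.32 (limma adjusted p = 0.0732), Fabp4 -0.86 (limma adjusted p = 0.152) and Lep 0.37 (limma adjusted p = 0.579). The count of markers that fell was 18 without weekly 4 and 13 without weekly 5, but 4 without daily 3, daily 4 or any of vehicle 1, 2, 3 and 5. It was 18 in a fit of daily and vehicle libraries alone. Calls over all genes, 547 in the main fit, were also more numerous in that fit and numbered 1478 without weekly 4.

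**Figure D4:**
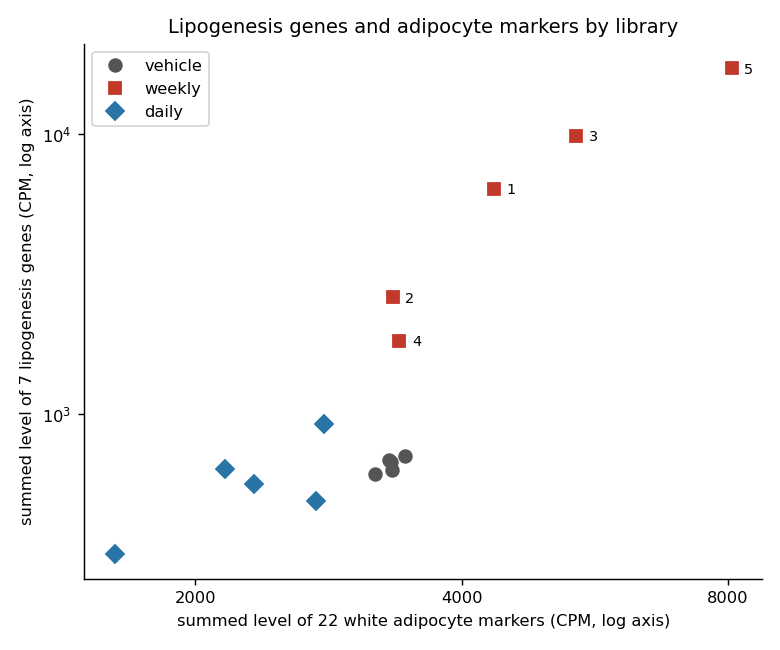
Summed level of the 7 lipogenesis genes against the summed level of 22 white adipocyte markers in each library, in CPM on log axes, with weekly replicates numbered. The marker sum is weighted towards its most abundant genes and includes Lpl, which muscle also makes, so it may not follow fat cell content. Weekly 2 and 4 lie at 3344 and 3402 CPM of markers, within the vehicle range of 3196 to 3454, but at 2615 and 1828 CPM of lipogenesis genes against 613 to 709.5 in vehicle.

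Brown and beige adipocyte markers rose in weekly libraries in 6 of 11 tested, and 0 fell, against 6.99% and 1.07% of all genes. Without weekly 5 the number that rose was 3. After TMM scaling of all libraries 5 rose and 0 fell, against 5.73% and 4.18%. Ucp1, the uncoupling protein of brown fat, was at 0.534 ± 0.246 CPM in vehicle, near the floor of 3 reads, and at 77.8, 9.77, 47.3, 1.44 and 223 CPM in weekly 1 to 5 (4.79, SE 0.78, limma adjusted p = 0.000522). Cidea, a droplet protein of brown fat, stood at 56.2, 8.96, 42.5, 2.52 and 97.6 CPM in weekly 1 to 5 and rose by 3.20 (limma adjusted p = 0.00322), and Otop1 rose by 2.44 (limma adjusted p = 0.00350). Weekly 5 was the highest and weekly 4 the lowest for both Ucp1 and Cidea, as for 5 of the members. Ppara rose by 1.04 (limma adjusted p = 0.0172, but 0.0596 without weekly 5) and Dio2 by 1.12 (limma adjusted p = 0.0299, up to 0.0941 without vehicle 1, 3, 4 or 5, weekly 3 or weekly 5). In daily libraries limma, edgeR and DESeq2 each called 0 of 11, while limma called 1.76% of all genes higher and 2.13% lower. Of the 11, 2 had an unadjusted limma p under 0.05, and limma called 2 lower without weekly 4. Cox8b had -0.55 (limma adjusted p = 0.119), Ppara 0.56 (limma adjusted p = 0.288), Ucp1 0.88 (limma adjusted p = 0.618) and Cidea -0.48 (limma adjusted p = 0.759).

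The 12 skeletal muscle markers were abundant throughout, as the tissue label has it, with sums of 89894 to 92365 CPM in vehicle, 72408 to 117166 in weekly and 55619 to 86142 in daily. Over all genes limma called 6.99% higher and 1.07% lower in weekly, and 1.76% and 2.13% in daily. Of the 12 muscle markers it called 0 in weekly and 0 in daily against vehicle, with an unadjusted p under 0.05 for 2 each time. EdgeR called 0 in both, and DESeq2 1 and 2. Limma called 2 higher in weekly without weekly 2 and 1 lower in daily without weekly 4. Weekly 5, highest for the 7, had the lowest weekly sum and weekly 4 the highest. Ckm, muscle creatine kinase, had 0.17 in weekly (limma adjusted p = 0.629) and -0.31 in daily (limma adjusted p = 0.470), Acta1 -0.11 and -0.50, and Myh4 -0.07 and -0.30. In weekly, Myh2 had 0.73 (limma adjusted p = 0.140) and Mb 0.42 (limma adjusted p = 0.196), and in daily Mylpf had -0.52 (limma adjusted p = 0.136). Hepatocyte markers, Elovl3 and Pklr were not analysed here.

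The genes whose pattern was closest to the median member were found by root mean square distance in log2 difference from the vehicle mean over the 10 prednisone libraries. The search covered 12634 genes, and the members themselves were not ranked as neighbours. The nearest was Tkt, transketolase of the pentose phosphate pathway, at a distance of 0.284. It was at 25.2 ± 2.31 CPM in vehicle, 230, 80.3, 354, 82.7 and 582 CPM in weekly 1 to 5 and 22.3 ± 5.88 CPM in daily. The next were Ppp1r3b, a glycogen-targeting phosphatase subunit (0.428), Pygl, glycogen phosphorylase (0.510), Otop1 (0.656), Slc25a1 (0.680), Cidea (0.694), Rufy4 (0.702) and Ntrk3 (0.774). For scale, Acly lay 0.252 and Thrsp 0.308 from that median, Elovl6 0.912, Pnpla3 1.26, Srebf1 1.91 and Mlxipl 1.94.

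For single members the nearest genes outside the members were also found, so another member may lie closer than any gene named here. Fasn, Acly and Thrsp had Tkt and Ppp1r3b as nearest such genes, Scd1 had Pygl and Tkt, and Acaca had Pygl (0.228) and Slc25a1. Outside the members, Elovl6 was nearest to Ucp1 (0.898) and Cidea. Pnpla3 was nearest to Adamts4 (0.935) and Rrad (0.959), whose mean levels in daily libraries were 8.77 and 68.9 CPM against 2.09 and 14.5 CPM in vehicle. The daily libraries enter the distance, so this likeness in daily follows from the search. Srebf1 was nearest to Fdps, a sterol synthesis gene (0.139), and Clic4 (0.156), and Mlxipl to Pdhb, a pyruvate dehydrogenase subunit (0.146), and Acadm (0.171), a fatty acid oxidation enzyme. These distances describe shared level patterns over the same libraries and carry no test.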

How the data were processed

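The authors deposited 1 table for all 15 libraries, whose values are CPM: every value (100% of 222090) is a whole multiple, within 0.01 reads, of what 1 read is worth in its library. The labels call the unit RPKM, and the test planned for either unit was used. Alignment used TopHat2 2.1.0 on GRCm38 (mm10), counting used HTSeq, and edgeR followed, per the submitters' processing notes. Of 14806 features, 534 without a gene name (0.276% to 0.447% of a library's reads) were left out, and 21 symbols read as dates. Log2(CPM + 0.5) values of all 15 libraries entered a single limma 3.58.1 fit with 3 groups and a variance trend in R 4.3.3. Benjamini-Hochberg adjustment ran over all 14059 genes, with 0.05 as threshold. EdgeR 4.0.16 and DESeq2 1.42.0 were run on recovered reads as alternatives, and the fit was tested on simulated data.

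The members and lists were chosen with earlier results of these data known, and a few listed genes, such as Elovl7 and Mogat1, were not analysed here. Genes named are the members; up to 5 called genes with the smallest p per list and comparison, or the 2 with the smallest p where fewer were called; defining cell markers; and nearest genes by pattern. Acacb, Me1, Srebf2 and Pparg were added after their values were seen. Some genes that this rule names are not reported here. Positions come from GENCODE M21 and promoters from RefSeq. Replicate numbers did not pair libraries (correlation of same-numbered deviations over 0.1 in 1 of 5 weekly and daily pairs and in none of the others).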

Additional observations from a re-analysis of the deposited data

Results flagged for a closer look

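Thrsp in daily 1 was at 16.1 CPM, while the other 4 daily libraries were at 6.11 to 8.73 CPM. The gap to the nearest library was 0.737 of the group's range, above Dixon's critical value of 0.71 for 5 samples. This was 1 of 27 groups examined (9 genes in 3 groups), and chance gives about 1 in 20. Daily 1 was also the highest daily library for the other 8 members.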

How the results depend on the processing

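Over 27 alternatives each member's weekly minus vehicle value stayed positive (243 of 243) and moved by less than the replicate spread, and in daily against vehicle only the Pnpla3 call changed, with the vehicle libraries averaged (1.71, limma adjusted p = 1.0). Of the daily minus weekly values, Srebf1 moved, to -0.62 with TMM scaling without weekly 4 and daily 3.

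Counts of called genes moved more. Genes called in weekly against vehicle (1133) numbered 1904 with DESeq2, 5690 with array weights, 3340 without weekly 4 and daily 3 (2415 with TMM scaling as well), 7 with the vehicle libraries averaged and 645 to 2251 without 1 library. In daily against vehicle (547) they numbered 1277 with TMM scaling, 1332 with edgeR, 1596 with DESeq2, 1685 with those 2 groups alone, 3532 with array weights, 2422 without weekly 4 and daily 3 (2788 with TMM scaling as well), 3 with vehicle averaged and 347 to 1478 without 1 library. In daily against weekly (1227) they numbered 663 with TMM scaling, 747 with edgeR, 232 with those 2 groups alone, 3449 with array weights, 2044 without weekly 4 and daily 3, 232 with vehicle averaged and 521 to 1888 without 1 library. Members called in daily (1) became 0 with vehicle averaged. Synthesis partners that rose in weekly (8) became 14 with array weights, 0 with vehicle averaged and 6 to 9 without 1 library. Those that rose in daily (1) became 2 with TMM scaling (also without weekly 4 and daily 3), edgeR, DESeq2 or those 2 groups alone, 3 with array weights, 0 with vehicle averaged and 0 to 2 without 1 library. Averaging the vehicle libraries and TMM scaling without both libraries were chosen after seeing the data. The main fit takes a single spread per gene from all 3 groups, so a library outside a contrast can also change its calls. The cause of these shifts in counts was not tested.

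With the replicate number as a block, the counts were 1096, 494 and 985, and the daily call of Scd2 was lost, so that 0 partners rose. Same-numbered libraries correlated between -0.0342 and 0.145 in their deviations, and differently numbered weekly and daily libraries up to 0.229, so the numbers are not taken as pairs.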
